A study of Mus musculus with 92 samples.

Results

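The alpha-defensin (cryptdin) genes of the mouse were taken as all 39 rows of the 4 count tables whose gene name begins with Defa, out of 54532 gene rows. Of these rows, 22 are annotated as protein-coding and 17 as pseudogenes, and all lie on chromosome 8. The tables covered 92 RNA-seq libraries in 21 groups, with totals from 8652040 to 37611126 reads per library. Messenger RNA was sequenced from crypts and villi of the mouse small intestine, from organoids of that tissue and from spheroids of the fetal intestine, after deletion of Eif4g2, which encodes a translation initiation factor, and from organoids treated with A-485. A-485 inhibits the catalytic activity of the histone acetyltransferases p300 and CBP.

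The tissue groups came from mice given tamoxifen. Crypts and villi of Eif4g2(flox/flox), Rosa26(CreER) mice (4 crypt and 5 villus libraries, called homozygous here) and of Eif4g2(flox/+), Rosa26(CreER) mice (5 and 5, heterozygous) were collected on day 9. Crypts and villi of Eif4g2(flox/flox),Vil1(CreER) mice (3 and 6) and Eif4g2(flox/+),Vil1(CreER) mice (4 and 4) were collected at 3 months, after tamoxifen at 100 mg/kg daily for 4 days. Every mouse carried CreER and received tamoxifen, so the heterozygous controls had 1 copy deleted as well. Rosa26 drives CreER in cells of all types, and Vil1 in the intestinal epithelium. A first organoid set, Eif4g2(flox/flox), Rosa26(CreER), had 3 libraries with DMSO and 3 with 0.5 µM 4-hydroxytamoxifen (4-OHT) for 24 h, collected on day 6. A second set, all with 4-OHT, had 4 libraries each of Eif4g2(flox/flox), Eif4g2(flox/+) and Eif4g2(+/+) organoids with Rosa26(CreER), the last called CreER-only. Fetal spheroids with Rosa26(CreER) were 6 flox/flox and 5 flox/+ lines, each with DMSO and with 4-OHT. Both organoid sets and the spheroids are labelled ENR, for the medium. In all 3 the 4-OHT was 0.5 µM for 24 h, with collection on day 6. In the A-485 set, each of 4 organoid lines was cultured for 4 days in DMSO or in 3, 5 or 10 µM of the inhibitor. Line 1 of that set is labelled Eif4g2(+/+), Rosa26(CreER) and the other 3 Eif4g2(flox/flox), Rosa26(CreER), none with 4-OHT.

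Paneth cells sit at the base of the small intestinal crypt between Lgr5+ stem cells and secrete granules of antimicrobial protein into the crypt lumen. Alpha-defensins are the main peptides of those granules. They are made as precursors, and in the mouse the matrix metalloproteinase Mmp7 (matrilysin) cuts the precursor to the active peptide, which 3 disulfide bonds hold together. The genes arose by repeated duplication, and Wnt signalling through beta-catenin and TCF factors is known to drive their transcription.

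Among the 39 members, 35 lay in 1 cluster of 724 kb (GRCm38 chr8:21025545-21750000), and the other 4, all pseudogenes, lay outside it. Reads were found for 33 members and none for 6. In all libraries together the family had 4176776 reads, of which pseudogenes took 0.353%. The 2 leading genes took 59.4% and the 8 leading genes 91.3%. Defa24 (ENSMUSG00000064213, chr8:21734494-21735471, plus strand) took 42.7%, Defa30 (ENSMUSG00000074444, chr8:21134642-21135598, plus strand) 16.6%, Defa21 (ENSMUSG00000074447, chr8:21025545-21026516, plus strand) 10.3% and Defa22 (ENSMUSG00000074443, chr8:21162277-21163249, plus strand) 8.77%. Defa20, Defa29, Defa17 and Defa32 followed with 4.66%, 2.78%, 2.71% and 2.71%. A further 6 rows of the same cluster carry predicted-gene names in the tables but overlap genes that RefSeq calls Defa38 to Defa43. They held 981148 reads, equal to 23.5% of the family's own, with AY761184 (Defa39) at 488977 and Gm14851 (Defa38) at 377092. The rule did not take them in, and they enter no family sum. Beta-defensin rows (name beginning with Defb) numbered 43 and had 1726 reads in all.

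The transcripts resemble each other so closely that the counts of single members cannot all be told apart. The 22 coding sequences formed 231 pairs with a median identity of 83.0% and a range from 44.8% to 100%, and 32 pairs were at least 95% identical. To show how near the leading members are, the last 111 coding bases, which encode the C-terminal end of the precursor where the mature peptide lies, are given from the GENCODE vM21 transcripts of GRCm38. Capitals mark bases that differ from Defa24.
Defa24: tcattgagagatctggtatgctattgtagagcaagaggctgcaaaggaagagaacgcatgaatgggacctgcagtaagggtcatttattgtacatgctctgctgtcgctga
Defa30: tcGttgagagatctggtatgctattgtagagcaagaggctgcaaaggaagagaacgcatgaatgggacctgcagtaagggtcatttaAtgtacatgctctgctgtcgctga
Defa17: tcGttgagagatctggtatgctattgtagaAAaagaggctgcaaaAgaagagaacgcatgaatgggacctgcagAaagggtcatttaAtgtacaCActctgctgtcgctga
Defa34: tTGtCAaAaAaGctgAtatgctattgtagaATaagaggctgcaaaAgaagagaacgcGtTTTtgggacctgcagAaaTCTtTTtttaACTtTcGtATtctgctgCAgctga
Defa22: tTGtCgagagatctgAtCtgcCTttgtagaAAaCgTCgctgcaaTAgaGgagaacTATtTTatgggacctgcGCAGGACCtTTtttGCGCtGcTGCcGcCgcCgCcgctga
Defa21: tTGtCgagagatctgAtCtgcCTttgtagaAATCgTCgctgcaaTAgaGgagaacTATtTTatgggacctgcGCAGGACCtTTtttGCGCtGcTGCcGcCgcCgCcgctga
In this stretch Defa30 differed from Defa24 at 2 positions, Defa17 at 8, Defa34 at 30, Defa22 at 42 and Defa21 at 43. Over the whole coding sequence Defa24 and Defa30 were 98.58% identical and Defa21 and Defa22 99.29%. The coding sequences of Defa20 and Defa32, of Defa17 and Defa3, of Defa2 and Defa33, of Defa23 and Defa31 and of Defa36 and Defa37 were the same. No stretch of 100 bases of the Defa24 transcript was shared with another gene, while 0.334% of such stretches of Defa30, 1.10% of Defa26, 40.4% of Defa21, 90.6% of Defa17 and 99.7% of Defa20 were shared with another gene. For stretches of 50 bases the shared part was 28.1% for Defa24, 52.4% for Defa30 and 40.2% for Defa26, and for stretches of 75 bases 6.67%, 20.7% and 14.1%. The read length, and how reads that fit several genes were counted, are not given in the sources used here. The family sum is therefore given first. The counts of Defa17, Defa3, Defa20, Defa32, Defa2, Defa33, Defa23, Defa31, Defa36, Defa37, Defa5 and Defa34 are uncertain as single genes. Those of Defa21 and Defa22 are uncertain in part. Of their stretches of 50 bases 72.9% and 74.9% were shared with another gene, and of 100 bases 40.4% and 40.3%.

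The promoters are shown because the members moved together in most comparisons below. RefSeq promoter entries (GRCm38.p6) were found for 16 alpha-defensin genes, 12 of them counted members. None was found for Defa24, Defa17, Defa29 or Defa34. The 250 bases before each start were searched on both strands for CTTTGAT, a TCF/LEF-type motif, for the related CTTTGTT, and for TATAAA. No motif searched contains another. In the windows below, which run over the 100 bases before the RefSeq start, capitals mark matches on either strand.
Defa21: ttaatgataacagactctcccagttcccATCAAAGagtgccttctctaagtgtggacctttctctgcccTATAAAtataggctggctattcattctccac
Defa20: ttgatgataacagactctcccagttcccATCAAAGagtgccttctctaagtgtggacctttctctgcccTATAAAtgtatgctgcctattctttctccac
Defa23: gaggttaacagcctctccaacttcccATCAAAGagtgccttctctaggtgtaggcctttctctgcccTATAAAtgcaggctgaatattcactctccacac
Defa28: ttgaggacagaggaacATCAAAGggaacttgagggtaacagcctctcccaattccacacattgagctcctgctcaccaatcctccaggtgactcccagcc
Defa38: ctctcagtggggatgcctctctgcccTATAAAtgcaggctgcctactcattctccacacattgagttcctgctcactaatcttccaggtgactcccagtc
Their positions on GRCm38.p6 are chr8:21025445-21025544 (Defa21, plus strand), chr8:21509158-21509257 (Defa20, plus), chr8:21054940-21055039 (Defa23, plus), chr8:21582927-21583026 (Defa28, plus) and chr8:21096051-21096150 (Defa38, minus). The Defa22 window (chr8:21162177-21162276, plus) had the same letters as that of Defa21. Windows were also the same for Defa23 and Defa31, Defa36 and Defa37, Defa2 and Defa20, and Defa42 and Defa43. The promoters counted next are therefore not independent of each other. CTTTGAT in either direction was present in 13 of the 16 promoters (81.25%), 70 to 142 bases before the start at its nearest copy, and 9 promoters held more than 1 copy. It was present in 3.205% of 32851 promoters of the same length. Defa38, Defa42 and Defa43 lacked these letters in the 250 bases. CTTTGTT was found in 0 of 16, against 5.029% of all promoters. TATAAA was found in 15 of 16, all but Defa28, against 12.368% of all promoters. The matches are a description of letters and not of bound sites.

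The level of the whole family is given as CPM, counts scaled to the depth of the library, after TMM scaling, summed over all 39 members, as mean ± SD over libraries. It ran from 10684 ± 1313 (SD, n = 5) in heterozygous Rosa26(CreER) crypts to 5.02 ± 2.90 (SD, n = 6) in homozygous Vil1(CreER) villi. In heterozygous Rosa26(CreER) crypts the family made up 1.24% to 1.93% of all reads of a library. Below them came flox/+ organoids at 3757 ± 287 (SD, n = 4), CreER-only organoids at 3647 ± 564 (SD, n = 4), homozygous Rosa26(CreER) crypts at 3271 ± 1865 (SD, n = 4), DMSO organoids of the A-485 set at 2225 ± 639 (SD, n = 4) and heterozygous Vil1(CreER) crypts at 2105 ± 891 (SD, n = 4). Each of these neighbours in the order overlapped the next, apart from the step from heterozygous Rosa26(CreER) crypts to flox/+ organoids. Of the 20 steps between neighbours over all 21 groups, the libraries failed to overlap at 2 others, from flox/flox organoids of the second set (694 ± 76.7, SD, n = 4) to 3 µM A-485 (135 ± 22.9, SD, n = 4) and from 10 µM A-485 (16.6 ± 5.12, SD, n = 4) to homozygous Vil1(CreER) villi. Scaling was computed separately for Rosa26(CreER) tissue, Vil1(CreER) tissue, each organoid set, spheroids and A-485, so levels set across these sets are approximate. In these bulk libraries, fewer Paneth cells and less defensin RNA per cell cannot be told apart.

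**Figure D1:**
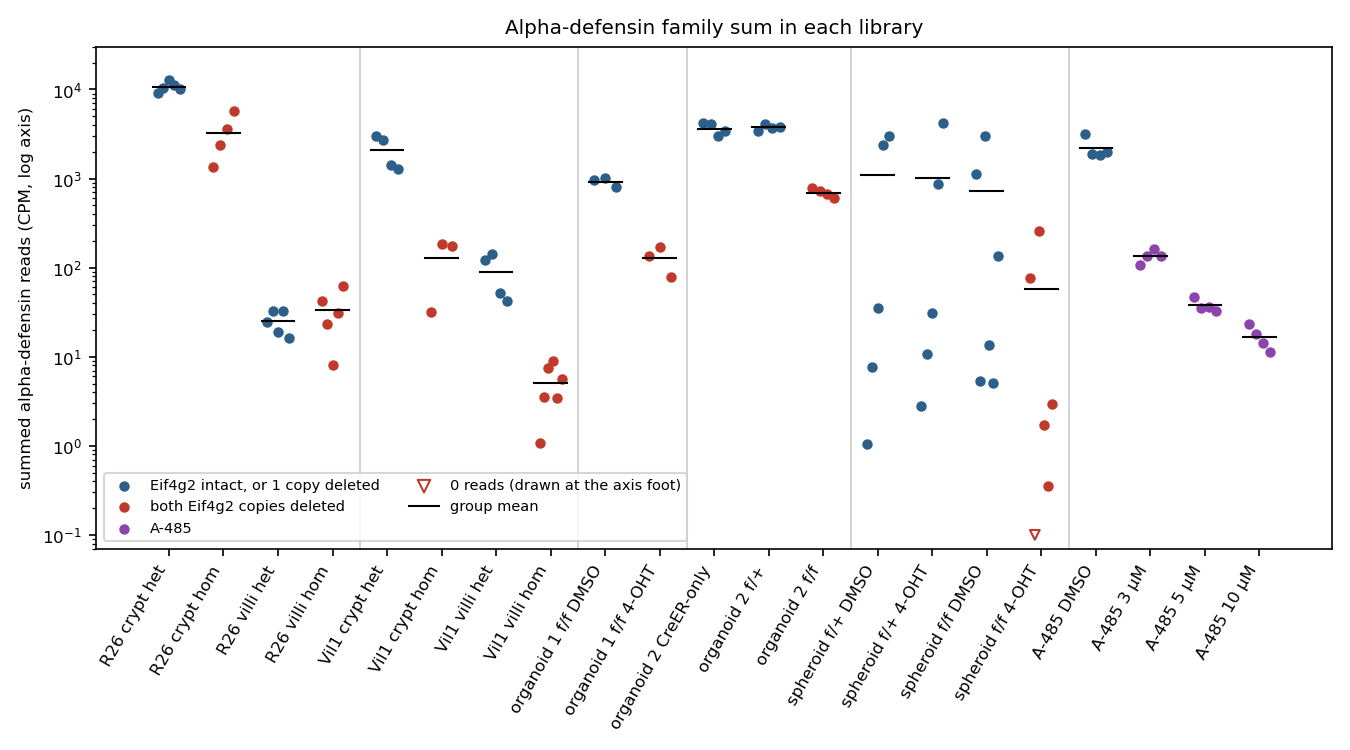
Alpha-defensin family sum in each of 92 libraries, in CPM after TMM scaling on a log axis, by group; black bars are group means and an open triangle is a library with 0 family reads. Homozygous or flox/flox 4-OHT libraries lie below their controls without overlap in both crypt sets and both organoid sets, while spheroid lines of every group spread over several orders of magnitude.

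The labels of the deletion were checked against the level of Eif4g2 itself. It was 67.9 to 98.3 CPM in homozygous against 337 to 357 in heterozygous Rosa26(CreER) crypts, 231 to 240 against 437 to 488 in Vil1(CreER) crypts, and 144 to 148 against 705 to 794 in the first organoid set. In villi it was 48.3 to 61.7 against 319 to 384 with Rosa26(CreER) and 134 to 182 against 357 to 475 with Vil1(CreER). In spheroids it was 84.9 to 224 with 4-OHT against 706 to 1202 with DMSO in flox/flox lines and 335 to 646 against 669 to 1163 in flox/+ lines. In the second organoid set it was 220 to 270 in flox/flox, 790 to 834 in flox/+ and 1257 to 1335 in CreER-only organoids. The identity of crypts was checked with Paneth cell markers: the summed level of 6 (Lyz1 among them) was 11950 to 16670 CPM in heterozygous Rosa26(CreER) crypts and 102.1 to 159.2 in the matching villi. Labels give tissue libraries by animal and organoid and spheroid libraries by line or replicate. Library names of the first organoid set give 3 culture names, each with DMSO and 4-OHT, and those of the second set a different name for each replicate. Whether these cultures came from separate animals is not stated, so p-values there measure the spread between these libraries.

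The family's level was far higher in crypts than in villi. Family levels in heterozygous Rosa26(CreER) crypts were 9124, 10318, 12662, 11112 and 10202 CPM for replicates 1 to 5, and in villi of such mice 24.4, 32.9, 18.8, 32.6 and 16.3. The log2 ratio of the group means was 8.74, and no villus library came near a crypt library. Of 26 members that passed the filter on low counts, all 26 were called higher in crypts by edgeR's quasi-likelihood test at a Benjamini-Hochberg adjusted p under 0.05, where 40.6% of all genes tested were called higher and 36.4% lower. Many of them passed the filter only through the crypts. Defa24 was 3481, 4826, 4326, 4637 and 3639 CPM in crypts and 18.3, 22.2, 16.3, 21.6 and 11.5 in villi, a log2 fold change of 7.85 (SE 0.233, edgeR adjusted p 9.04e-10). Defa32 had 0 reads in all 5 villus libraries and was at least 13400-fold higher in crypts, counted against a floor of 3 reads over the group. Lyz1, the lysozyme of Paneth granules, was called higher in crypts too, and Mmp7 was higher by log2 7.52.

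In the Vil1(CreER) mice the distance between crypt and villus libraries was smaller. Heterozygous crypts had 3021, 2715, 1412 and 1274 CPM and villi 122, 144, 52.5 and 42.5, a log2 ratio of 4.55. All 22 tested members were called higher in crypts (35.2% of all genes were), and 21 had no overlap. As in the other set, many members passed the filter only through the crypts. Overlap was counted for members only, here and below, and no share of all genes without overlap stands beside it. Defa24 differed by log2 4.43 (SE 0.348, edgeR adjusted p 2.46e-06), and Lyz1 by 4.92. Slc30a2, a zinc transporter that loads Paneth granules, went the other way in both sets, with log2 -2.50 and -2.49 in crypts against villi. The difference between the sets in the crypt to villus ratio was not tested, and the sets differ in driver and in time.

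In Rosa26(CreER) crypts the family was lower after homozygous deletion, by 3.27-fold between group means. The homozygous libraries had 1344, 2411, 3642 and 5688 CPM (replicates 1, 3, 4 and 5) against 9124 to 12662 in the 5 heterozygous ones. The log2 ratio was -1.71 and the groups did not overlap, although homozygous libraries differed among themselves more than heterozygous ones. Of 28 tested members 20 were called lower and none higher by edgeR. Of all 15846 genes 11.6% were called lower and 8.63% higher. No overlap between the groups was seen for 19 members, and the share of all genes without overlap is not given here. The members' median log2 fold change was -1.86, that of all genes 0.04. The group without calls comprised Defa30, Defa37, Defa36, Defa31, Defa35, Defa27, Defa-ps18 and Defa-ps7, all 8 with fold changes below 0.

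Defa24, the leading member, had 540, 769, 1296 and 2394 CPM in homozygous crypts against 3481 to 4826, a log2 fold change of -1.72 (SE 0.377, edgeR adjusted p 0.0137). Defa30, its near twin, had 335, 441, 760 and 1287 CPM against 1238, 1819, 1244, 1483 and 1227, so that the highest homozygous library lay inside the heterozygous range. Its log2 fold change of -0.96 (SE 0.342) was not called (edgeR adjusted p 0.0766). It was called without homozygous replicate 5 (log2 -1.37, edgeR adjusted p 0.00691) and with DESeq2 (adjusted p 0.0261). Defa21 had 122, 352, 451 and 521 CPM against 796 to 1935, and Defa22 had 108, 316, 357 and 369 against 645 to 1612; their log2 fold changes were -1.87 (SE 0.409) and -1.84 (SE 0.387). Defa29 had 61.3, 90.9, 133 and 169.6 CPM against 231.3 to 340.2 and was called lower (edgeR adjusted p 0.0137).

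Defa17 stood at the other end of the range of called coding members. It had 11.4, 19.0, 31.7 and 84.1 CPM in homozygous and 337, 506, 370, 282 and 547 in heterozygous crypts, a log2 fold change of -3.46 (SE 0.55, edgeR adjusted p 0.0034). Its share of the family's reads was 3.88% ± 1.22 (SD, n = 5) in heterozygous and 1.00% ± 0.324 (SD, n = 4) in homozygous crypts, while that of Defa30 was 13.3% ± 2.85 and 21.7% ± 2.79. Defa24 held 39.3% ± 5.06 and 37.4% ± 4.59. The pseudogene Defa-ps1 fell by 3.55 on the log2 scale (SE 0.437, edgeR adjusted p 0.00106). Differences between members in their fold changes were not tested.

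**Figure D2:**
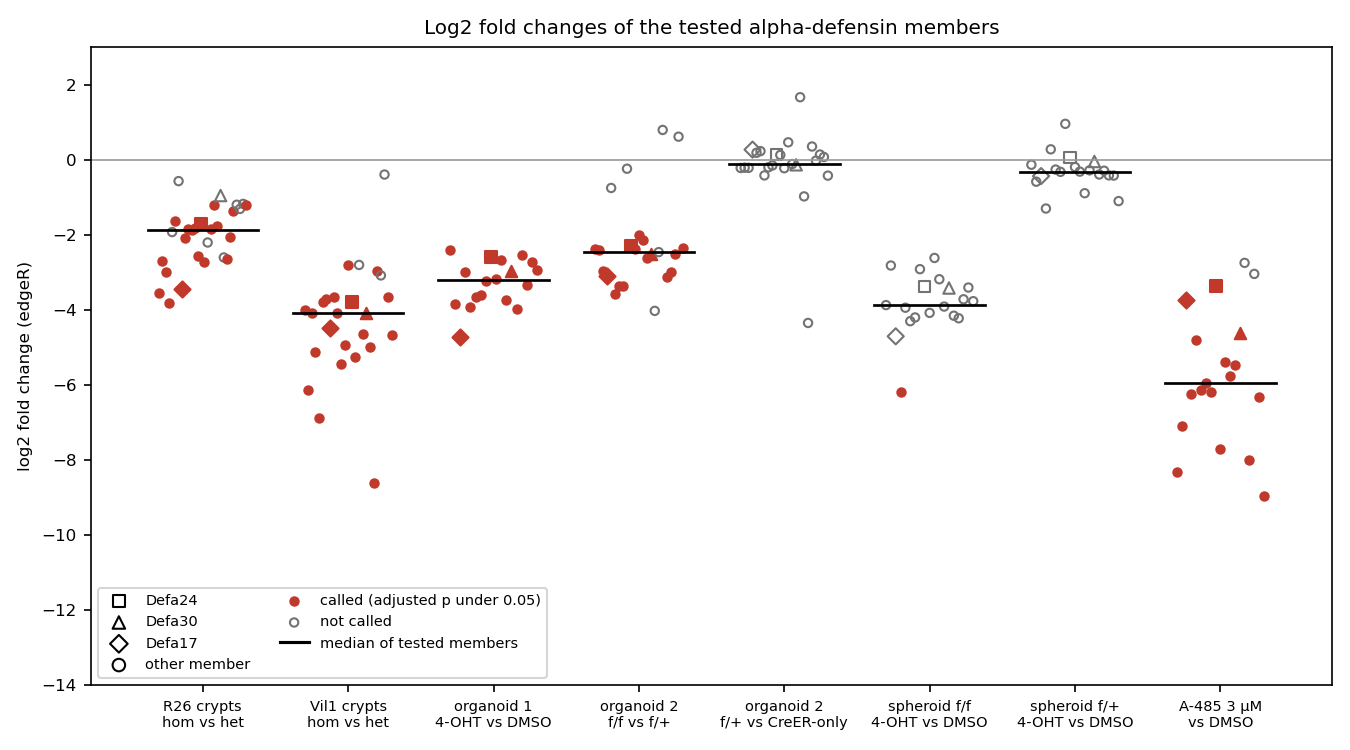
Log2 fold changes of every tested alpha-defensin member in 8 comparisons; filled symbols passed an edgeR adjusted p of 0.05, bars are medians over tested members, the square is Defa24, the triangle Defa30 and the diamond Defa17. Nearly all members lie below 0 after homozygous deletion and after A-485, with Defa17 below Defa24 in both crypt comparisons, while members scatter around 0 between flox/+ and CreER-only organoids and between treatments in flox/+ spheroids.

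Several other measures moved with genotype in these crypts. Ddx3y, a Y-linked gene, was present in all heterozygous libraries and in 1 of the 4 homozygous crypt libraries; that library had the lowest family level, 1344 CPM. With a term for Y-linked reads 23 members were called lower, and Defa30 was among the called genes (log2 -1.98, edgeR adjusted p 0.0324). The share of all genes called in that fit is not given here. Stromal markers summed to 24.3 to 1826 CPM in homozygous and 12.6 to 552 in heterozygous crypts, and none of 6 was called; immune markers summed to 45.6 to 466 and 40.3 to 229, with 1 of 7 called higher. Stem cell markers summed to 201 to 854 and 3828 to 6542 CPM. The part of these in the family's change was not tested. Leaving out heterozygous replicate 3 or 1 reduced the members called lower from 20 to 12 and 13.

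Other Paneth cell genes fell with the family in these crypts. Of 39 listed genes, 23 were called lower and 1 higher, with a median log2 fold change of -1.12. Among 14 granule products 10 were called lower and none higher: Lyz1 was 1098, 1546, 2753 and 5096 CPM against 8192 to 11390 (log2 -1.88, edgeR adjusted p 0.011), Ang4, an antimicrobial ribonuclease, fell by 2.09, Itln1, a lectin that binds microbial sugars, by 1.67, Pla2g2a, a bactericidal phospholipase, by 1.39 and Mptx2, a pentraxin of Paneth cells, by 3.38. Mmp7 fell by 1.14 (edgeR adjusted p 0.0116) and Slc30a2 by 2.88. Of 12 regulators 7 were called lower and none higher, among them Sox9 (log2 -1.37), needed for Paneth cell formation, and Atoh1 (log2 -1.40), which sets the secretory fate. Spdef (-0.32) and Xbp1 (-0.09) were not called. The stem cell genes Lgr5 and Olfm4 fell by 3.23 and 4.09, and the goblet cell mucin Muc2 was not called (log2 -1.11, edgeR adjusted p 0.201). Other secretory cell markers were lower too: 3 of 6 goblet, 3 of 4 enteroendocrine and all 3 tuft markers were called lower. None of 7 enterocyte markers was called. The part of these in the family's change was not tested.

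In Rosa26(CreER) villi, where the family was close to its lowest, no fall was seen. Homozygous villi had 42.1, 23.3, 8.08, 31.3 and 63.0 CPM against 24.4, 32.9, 18.8, 32.6 and 16.3, with overlapping ranges and a log2 ratio of 0.42. Without Defa24 the log2 ratio was 1.40. Only 3 members passed the filter, and 1 was called, with 15.0% of all genes called higher and 18.2% lower. Defa30 had 14.4, 9.21, 2.56, 9.39 and 15.7 CPM in homozygous and 2.92, 5.51, 1.11, 6.18 and 1.73 in heterozygous villi, a log2 fold change of 1.52 (SE 0.532, edgeR adjusted p 0.0496). Its ranges overlapped, and the call was lost without a filter on low counts, with a term for Y-linked reads and with a term for the series of animal numbers. Defa24 was not called (log2 -0.30, edgeR adjusted p 0.598). Of the other Paneth cell genes tested 8 of 34 were called lower and 6 higher; Slc30a2 fell by 3.05 (edgeR adjusted p 0.00256), from 105 to 197 CPM down to 4.58 to 37.3.

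At 3 months the family was also lower in homozygous Vil1(CreER) crypts. Homozygous crypts had 32.1, 183 and 174 CPM and heterozygous ones 3021, 2715, 1412 and 1274, a 16.3-fold lower mean (log2 -4.02) with no overlap. By edgeR 22 of 25 tested members were called lower and none higher, against 17.7% of all genes called lower and 11.6% higher. The median log2 fold change was -4.08. Defa24 had 18.9, 99.1 and 85.5 CPM against 1324, 926, 823 and 686 (log2 -3.79, SE 0.643, edgeR adjusted p 0.00707), and Defa30 had 2.15, 32.9 and 26.6 against 532, 330, 294 and 243 (log2 -4.08, SE 0.93, edgeR adjusted p 0.0215). Defa21 fell by 5.44, Defa22 by 4.95 and Defa20 by 4.09. Defa32 had a log2 fold change of -8.61, with heterozygous libraries spread from 1.89 to 266 CPM. The call of Defa30 was lost without the low-count filter (edgeR adjusted p 0.0547) and without homozygous replicate 2 (0.0553) or 3 (0.0702). Defa21, Defa22, Defa20 and Defa32 also lost their calls without the filter (edgeR adjusted p 0.0558, 0.0503, 0.0618 and 0.0887). Each of them lost it in some fits without 1 library too.

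Members without a call in these crypts were Defa29, Defa36 and Defa35. Defa29 had 1.53, 23.0 and 17.8 CPM in homozygous and 37.6 to 157.7 in heterozygous crypts, without overlap, at log2 -2.81 (SE 0.961, edgeR adjusted p 0.0781); DESeq2 called it (adjusted p 0.00977). Homozygous replicate 1 was the lowest library for the family and for Defa24, yet it had the highest level of Defa36, 4.25 CPM against 1.04 to 3.16 in heterozygous crypts. Leaving out homozygous replicate 2 reduced the members called lower from 22 to 12. Of 38 other Paneth cell genes tested 23 were called lower and 1 higher. Lyz1 had 252, 621 and 587 CPM against 1787 to 3955 (log2 -2.45, edgeR adjusted p 0.00606), Mmp7 fell by 1.58, Itln1 by 2.93, Ang4 by 4.64, Slc30a2 by 4.95 and Mptx2 by 6.90. Markers of other cell types were lower in the same libraries. Stem cell markers summed to 284 to 523 CPM in homozygous and 4888 to 5460 in heterozygous crypts, with 3 of 5 called lower. All 3 tuft, all 4 enteroendocrine, 4 of 6 goblet and 3 of 7 enterocyte markers were called lower. Immune markers summed to 355 to 508 and 53.6 to 559.9 CPM, with 1 of 6 called lower, and 1 of 4 stromal markers was called higher. Their part in the family's change was not tested.

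The Vil1(CreER) villi showed the same direction as their crypts. Homozygous villi had 1.07, 3.56, 7.43, 8.98, 3.45 and 5.65 CPM against 122, 144, 52.5 and 42.5, a 17.9-fold lower mean (log2 -4.16) without overlap. All 6 tested members (Defa24, Defa30, Defa21, Defa22, Defa20 and Defa29) were called lower, with 21.6% of all genes called lower. Homozygous libraries had only 24 to 230 family reads, so members could pass the filter through the heterozygous villi alone. Defa24 fell by 4.08 (SE 0.522, edgeR adjusted p 0.000164) and Defa30 by 4.05 (SE 0.468, edgeR adjusted p 3.03e-05). Lyz1 fell by 1.42 (edgeR adjusted p 0.0419), a call lost without the low-count filter (adjusted p 0.101) and in 7 of 10 fits without 1 library. Mmp7 was not called (log2 -1.30, edgeR adjusted p 0.0963) but was without homozygous replicate 4 (log2 -1.77, edgeR adjusted p 0.0245). Among heterozygous mice, replicates 1 and 2 had the higher level in both crypts and villi. Whether the effect of deletion in villi differs between the drivers was not tested.

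Organoids, which hold epithelial cells and no stroma, showed the difference in culture within 6 days. In the first set the 3 libraries went from 954, 1024 and 796 CPM with DMSO to 135, 170 and 77.7 with 4-OHT, which was 7.07-, 6.01- and 10.2-fold lower replicate by replicate (log2 ratio of means -2.86). All 18 tested members were called lower, with 17.2% of all genes called lower and 18.2% higher, and the members' median was -3.21. Defa24 went from 535, 629 and 466 to 98.0, 120 and 50.6 CPM (log2 -2.60, SE 0.308, edgeR adjusted p 0.00121). Defa30 went from 138.1, 159.4 and 144.5 to 18.5, 24.8 and 13.7 (log2 -2.96, SE 0.209, edgeR adjusted p 0.000291). Defa17 went from 133, 52.1 and 23.2 to 2.58, 3.91 and 1.43 (log2 -4.73, SE 0.716, edgeR adjusted p 0.00286), and Defa21, Defa22 and Defa20 fell by 3.67, 3.62 and 3.93.

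Among 38 other Paneth cell genes tested in this set 24 were called lower and 4 higher. Lyz1 fell by 2.30, Itln1 by 3.07, Mptx2 by 5.18, Slc30a2 by 5.04 and Atoh1 by 1.71 (edgeR adjusted p 0.00566). Mmp7 had 33.5, 42.3 and 11.3 CPM against 69.9, 86.7 and 55.8, and was not called (log2 -1.29, edgeR adjusted p 0.0548). It was called with the culture as a replicate block (log2 -1.44, edgeR adjusted p 0.00618), with all groups of the table in the fit (edgeR adjusted p 0.0155) and with DESeq2 (adjusted p 0.00521). Markers of other cells were called lower too: all 5 stem cell, all 4 enteroendocrine and all 3 tuft markers, 6 of 7 enterocyte and 4 of 6 goblet markers. Of 5 fetal-like markers 2 were called higher. The part of these in the family's change was not tested.

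The second organoid set separated loss of both copies from loss of 1. Family levels were 778, 727, 670 and 600 CPM in flox/flox, 3402, 4099, 3726 and 3802 in flox/+ and 4157, 4071, 2982 and 3379 in CreER-only organoids, all with 4-OHT. Flox/flox organoids lay 5.42-fold below flox/+ (log2 -2.44) and 5.26-fold below CreER-only (log2 -2.39), without overlap, and these comparisons share the flox/flox libraries. Flox/+ and CreER-only organoids overlapped, with a log2 ratio of 0.04. Of 23 members tested, 17 were called lower against flox/+ (24.3% of all genes) and 18 against CreER-only (23.5%). None was called higher (22.6% and 21.9% of all genes). Between flox/+ and CreER-only no member was called by edgeR or DESeq2, and 1 of 23 had an unadjusted p under 0.05; of all genes 0.0633% were called lower and 0.0492% higher. The log2 fold change of Defa24 there was 0.14 (SE 0.129, edgeR adjusted p 0.748) and of Defa30 -0.14 (SE 0.119, edgeR adjusted p 0.73).

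Against flox/+, Defa24 had 376 to 511 CPM in flox/flox against 1798, 2211, 2409 and 2316, a log2 fold change of -2.29 (SE 0.135, edgeR adjusted p 7.12e-08). Defa30 had 156, 142, 138 and 125 against 790, 959, 767 and 696 (log2 -2.52, SE 0.126, edgeR adjusted p 1.15e-08). Defa26 had 6.68, 8.94, 6.89 and 7.16 against 38.2, 39.3, 41.3 and 35.1 CPM (log2 -2.37, SE 0.108, edgeR adjusted p 8.67e-10). Defa22 fell by 3.37 and Defa20 by 3.59. Defa17 had 12.3, 7.29, 7.13 and 5.43 CPM against 107, 81.6, 19.8 and 69.1 (log2 -3.11, SE 0.65, edgeR adjusted p 0.00329).

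Against flox/+, 6 members had no call: Defa32, Defa31, Defa2, Defa23, Defa37 and Defa33. Defa37 had 0.401, 0.398, 0.772 and 11.1 CPM in flox/flox replicates 1 to 4, and Defa2 had 0.468, 0.729, 0.535 and 13.4. Both were called lower once replicate 4 was left out (log2 -1.97, edgeR adjusted p 0.00475, and log2 -3.47, adjusted p 0.0168). Defa23 had 0.401, 8.88, 29.2 and 0.836 CPM, so that other libraries were high there, and Defa33 had reads in 1 library of each genotype. Of 38 other Paneth cell genes tested against flox/+, 22 were called lower and 8 higher, where 24.3% and 22.6% of all genes were. Lyz1 had 529.5, 577, 464 and 378 CPM against 2323, 1805, 1572 and 1594 (log2 -1.90, edgeR adjusted p 1.6e-06). Mmp7 went from 190, 195, 143 and 156 to 136, 143, 151 and 147 CPM, and was called lower (log2 -0.24, edgeR adjusted p 0.0261). The ranges overlapped, and the call was lost with these 2 groups alone in the fit (edgeR adjusted p 0.0554) and in 4 of 8 fits without 1 library. Ang4 fell by 0.76, Itln1 by 1.57, Slc30a2 by 3.11, Mptx2 by 4.77, Atoh1 by 0.81 and Sox9 by 0.76.

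Fetal spheroids are grown from the intestine before birth, when Paneth cells have not yet formed. Their family levels differed widely from line to line. With DMSO, flox/flox lines 1 to 6 had 1140, 5.39, 3005, 13.6, 5.09 and 134 CPM, and flox/+ lines 1 to 5 had 1.06, 7.61, 35.5, 2392 and 3023. Thus 2 lines of each genotype stood far above the rest, and the lowest lines had levels of 1.06 to 7.61 CPM. Defa24 made up 52.1% of family reads in flox/flox DMSO lines with at least 200 family reads (4 of 6 lines).

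Within each flox/flox line the family was lower with 4-OHT. The 4-OHT libraries had 76.6, 0, 261, 1.71, 0.351 and 2.94 CPM, which was 14.9-, 11.5-, 7.98-, 14.5- and 45.5-fold lower in lines 1, 3, 4, 5 and 6. In line 2 the family went from 123 reads to 0, at least 27.04-fold lower against a floor of 3 reads. The log2 ratio of the group means was -3.65, and the groups overlapped; leaving out 1 library, and not its partner of the same line, moved it from -5.46 (without 4-OHT line 3) to -2.18 (without DMSO line 3). In flox/+ lines the 4-OHT libraries had 2.82, 10.9, 30.6, 860 and 4232 CPM, so that lines 1, 2 and 5 were 2.67-, 1.43- and 1.40-fold higher and lines 3 and 4 were 1.16- and 2.78-fold lower (log2 ratio of means -0.09). Leaving out single libraries moved that ratio from -2.27 (without the 4-OHT library of line 5) to 0.75 (without its DMSO library). The difference between the genotypes in their response was not tested.

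**Figure D3:**
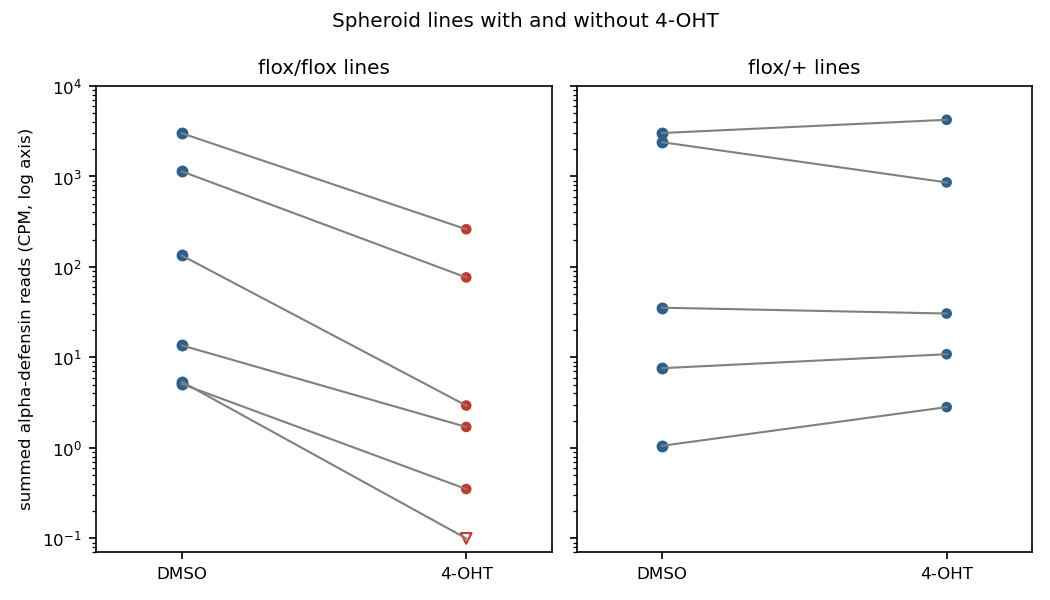
Family sum in CPM on a log axis for each fetal spheroid line with DMSO and with 4-OHT, 1 line per spheroid line; left, 6 flox/flox lines, right, 5 flox/+ lines, with the library of 0 reads drawn as an open triangle. All 6 flox/flox lines fall with 4-OHT, while 3 flox/+ lines rise and 2 fall.

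Few members passed a test in spheroids. Without regard to line, edgeR called 1 of 19 tested members lower in flox/flox spheroids and none higher (10.0% of all genes were called lower and 9.01% higher). That member was Defa2 (log2 -6.20, SE 2.12, edgeR adjusted p 0.0454), at 0.321 to 24.5 CPM in 4 DMSO lines and at most 0.228 with 4-OHT. The call was lost without the low-count filter (edgeR adjusted p 0.103) and in 9 of 12 fits without 1 library. With these 2 groups alone, also with the line as a block, Defa2 did not pass the filter and was not tested. With the line as a replicate block, which pairs each line with itself, 2 members were called: Defa24 (log2 -3.95, edgeR adjusted p 0.00129) and Defa30 (log2 -3.51, edgeR adjusted p 0.000655). Without the block they were at log2 -3.38 (SE 2.00, edgeR adjusted p 0.262) and -3.42 (SE 2.17, edgeR adjusted p 0.302). The shares of all genes given above belong to the fit without the block, and those with the block are not given here. Defa24 had 502, 4.65, 1218, 9.74, 2.42 and 70.0 CPM with DMSO and 39.5, 0, 131, 1.05, 0.301 and 1.19 with 4-OHT.

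With the block, Lyz1 (log2 -3.17), Itln1 (-4.10), Ang4 (-3.58) and Mmp7 (-3.31) were called lower as well, with edgeR adjusted p from 0.00426 to 0.00872. Without it, 13 of 38 other Paneth cell genes were called lower and 1 higher, among them Atoh1 (log2 -2.56, edgeR adjusted p 0.0046). Mptx2 (log2 -7.24, edgeR adjusted p 0.0316) and Slc30a2 (-4.60, edgeR adjusted p 0.0327) were called as well, but not without the low-count filter (adjusted p 0.075 and 0.0661) and not in 7 and 6 of 12 fits without 1 library. In flox/+ spheroids edgeR and DESeq2 called 0 of 19 members between 4-OHT and DMSO, and 0 had an unadjusted p under 0.05; 0% of all genes were called in either direction. Between the genotypes with 4-OHT, edgeR called 0 members (3 at an unadjusted p under 0.05, and 0 with DESeq2), against 6.13% of genes called lower and 4.36% higher; with DMSO it also called 0 (0 unadjusted, 0 with DESeq2, and 0% of genes). Flox/+ spheroids with 4-OHT had a 3.66-fold lower mean than flox/+ organoids of the second set, with overlap, and 3 of 22 members were called lower (22.8% of genes). These were Defa31 (log2 -6.30), Defa17 (-4.08) and Defa36 (-2.62); the count was 0 without organoid replicate 4, whose Defa31 level of 54.8 CPM stood against 0.301 to 0.99 in the other 3, and 11 without spheroid line 5.

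A-485 lowered the family at every dose. With DMSO lines 1 to 4 had 3178, 1874, 1849 and 2000 CPM. At 3 µM they had 107, 136, 163 and 134, at 5 µM 47.3, 35.4, 36.5 and 33.0, and at 10 µM 23.0, 18.2, 14.2 and 11.2. Each dose lay below the one before in every line, without overlap between any pair of doses, and the 3 comparisons with DMSO share the same 4 controls. The means were 16.5-fold (log2 -4.04), 58.5-fold (log2 -5.87) and 134-fold (log2 -7.06) lower than with DMSO. Line by line, the level was 29.7-, 13.8-, 11.4- and 15.0-fold lower at 3 µM and 138-, 103-, 130- and 179-fold lower at 10 µM. Line 1, the Eif4g2(+/+) line, had the highest level with DMSO and the lowest at 3 µM.

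Of 19 tested members edgeR called 17 lower at 3 µM, 19 at 5 µM and 19 at 10 µM, none higher, against 8.42%, 25.1% and 32.6% of all genes called lower and 10.8%, 24.4% and 29.4% called higher. The members' medians were -5.96, -7.35 and -8.71 on the log2 scale. Members near 0 reads with A-485 passed the filter through the DMSO libraries, where they are high, so for them only a call of lower was open. Defa24 had 1161, 867, 963 and 863 CPM with DMSO, 63.9, 79.0, 121 and 106 at 3 µM, 29.6, 27.9, 30.4 and 26.2 at 5 µM and 15.6, 11.9, 10.1 and 9.42 at 10 µM. Its log2 fold changes were -3.38 (SE 0.191, edgeR adjusted p 2.26e-09), -5.08 (SE 0.208, edgeR adjusted p 1.01e-11) and -6.35 (SE 0.222, edgeR adjusted p 8.30e-13). Other leading members changed more by these estimates: at 3 µM Defa30 fell by 4.62 (SE 0.32), Defa20 by 4.80, Defa29 by 5.77, Defa22 by 5.96 and Defa21 by 6.14. Defa34 went from 17.6 to 38.5 CPM with DMSO to at most 0.152. Defa36 and Defa31 were not called at 3 µM (log2 -3.05 and -2.75, edgeR adjusted p 0.0726 and 0.111); with the line as a replicate block they were (adjusted p 0.0282 and 0.0464).

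Many members went to 0 reads. In the 4 libraries at 10 µM 10 of the 19 tested members had no read at all. Against a floor of 3 reads over the group, Defa17 was at least 2800-fold, Defa29 at least 1450-fold, Defa23 at least 1210-fold and Defa26 at least 586-fold lower than with DMSO. Defa17 stepped from 200, 131, 132 and 171 CPM to 9.29, 18.8, 15.2 and 3.89 at 3 µM, to 5.69, 2.12, 1.89 and 2.79 at 5 µM and to 0 in all 4 lines at 10 µM. Defa24 remained in every library and took 44.5% ± 6.48 (SD, n = 4) of the family's reads with DMSO, 68.0% ± 10.7 (SD, n = 4) at 3 µM and 76.1% ± 9.24 (SD, n = 4) at 5 µM. At 10 µM its share was 68.0% ± 2.88 (SD, n = 3) in the lines with at least 200 family reads.

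**Figure D4:**
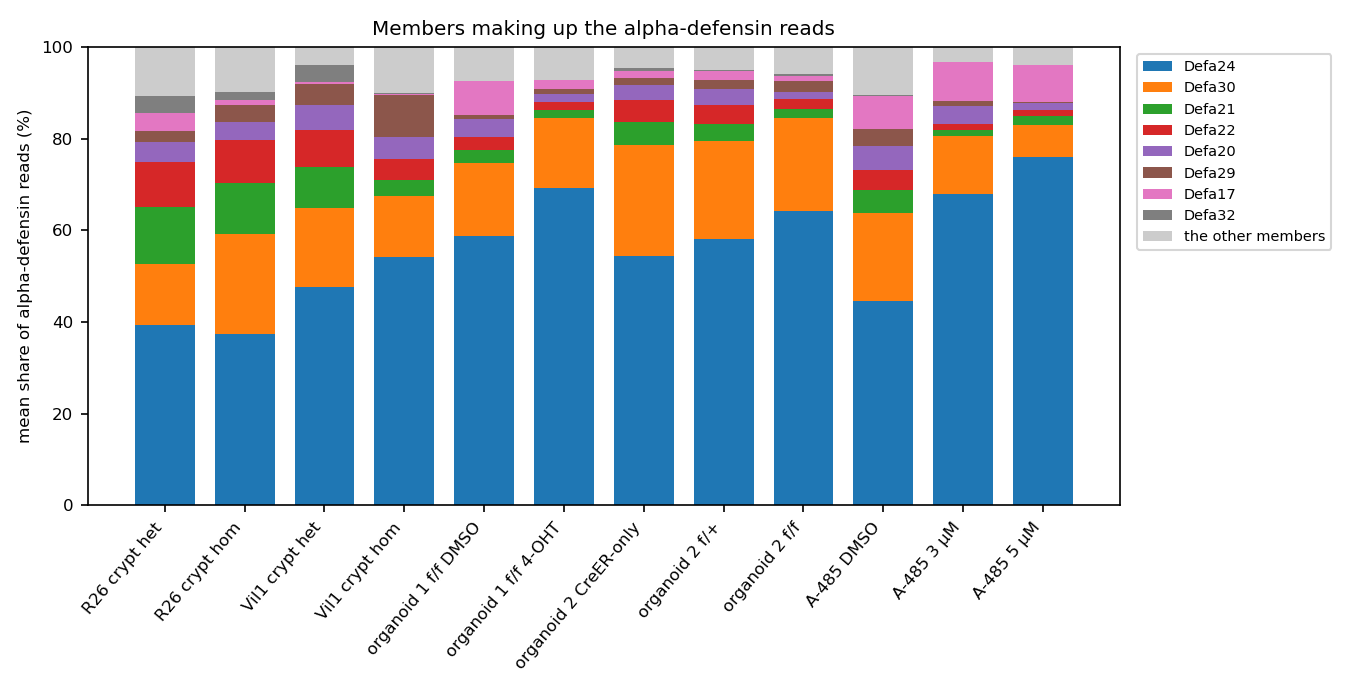
Mean share of family reads, in percent, taken by each of the 8 leading members and by all others in 12 groups, over libraries with at least 200 family reads. Defa24 is the largest segment in all 12 groups and widens under A-485. Defa17 is a visible segment in Rosa26(CreER) heterozygous crypts and DMSO organoids of the first set, but not in Vil1(CreER) crypts. In the A-485 set it is visible with DMSO and at 3 and 5 µM.

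From 3 to 5 µM, 5 of 19 members were called lower (13.0% of genes): Defa24 (log2 -1.70, SE 0.183, edgeR adjusted p 9.70e-06), Defa30 (-2.73), Defa29 (-3.62), Defa17 (-1.89) and Defa3 (-4.40, SE 1.27, edgeR adjusted p 0.022). With the line as a replicate block 3 were called, in a fit whose share of all genes called is not given here. From 5 to 10 µM, 2 were called lower and none higher (12.4% and 6.44% of genes): Defa24 (log2 -1.28, SE 0.189, edgeR adjusted p 8.64e-05) and Defa17, at least 55.2-fold lower. Most other members were close to 0 reads by then, with Defa30 at 2.02 to 3.56 CPM at 5 µM and 0.332 to 4.29 at 10 µM.

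Products of Paneth granules fell along with the defensins at the lowest dose, while Mmp7 and the secretory regulators Atoh1 and Spdef did not pass the test. At 3 µM 10 granule products of the list of 14 were called lower and none higher. Lyz1 went from 1837, 1262, 970 and 938 CPM to 96.1, 123, 131 and 130 (log2 -3.38, edgeR adjusted p 8.27e-08), Ang4 fell by 3.30, Itln1 by 3.89 and Pla2g2a by 4.43, and Mptx2 had reads only with DMSO. Of 12 regulators 4 were called lower and none higher at 3 µM. Atoh1 (log2 0.17), Spdef (-0.22), Xbp1 (-0.09) and Sox9 (-0.29) were not called, and neither was Muc2 (0.63). Mmp7 had 214, 182, 215 and 231 CPM at 3 µM against 185, 134, 105 and 126 (log2 0.61, edgeR adjusted p 0.0727); with the line as a replicate block it was called higher (log2 0.65, adjusted p 0.0259). Of the stem cell genes Lgr5 fell by 1.11 and Olfm4 by 2.84.

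Higher doses reached these genes too. Mmp7 had 94.8, 60.1, 79.6 and 79.6 CPM at 5 µM (log2 -0.81, edgeR adjusted p 0.00791) and 8.39, 4.09, 3.44 and 2.66 at 10 µM (log2 -4.86). Atoh1 fell by 1.95 at 5 µM and by 6.62 at 10 µM, Sox9 by 1.48 and 3.10, Spdef by 2.06 at 5 µM and Xbp1 by 0.67 at 10 µM. Lyz1 had 9.44 to 13.2 CPM at 5 µM and 5.84 to 13.04 at 10 µM, with overlapping ranges. Of the 38 other Paneth cell genes tested 15, 23 and 28 were called lower at 3, 5 and 10 µM, and 1, 5 and 3 higher. Goblet cell markers, 6 in all, had 3 called higher and none lower at 3 µM and all 6 called lower at 10 µM. Over these doses the share of all genes called lower was 8.42%, 25.1% and 32.6%. Summed enteroendocrine markers had 19.45 to 98.95 CPM at 3 µM against 327.6 to 483.9 with DMSO. Tuft markers had 7.69 to 15.0 against 40.7 to 51.2 CPM, and enterocyte markers 2082 to 5020 against 5302 to 10730. Fetal-like markers were higher at 3 µM, at 465 to 917 against 148 to 207 CPM. Pan-epithelial markers were higher as well, at 6326 to 7585 against 5643 to 6028. Their part in the family's change was not tested.

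**Figure D5:**
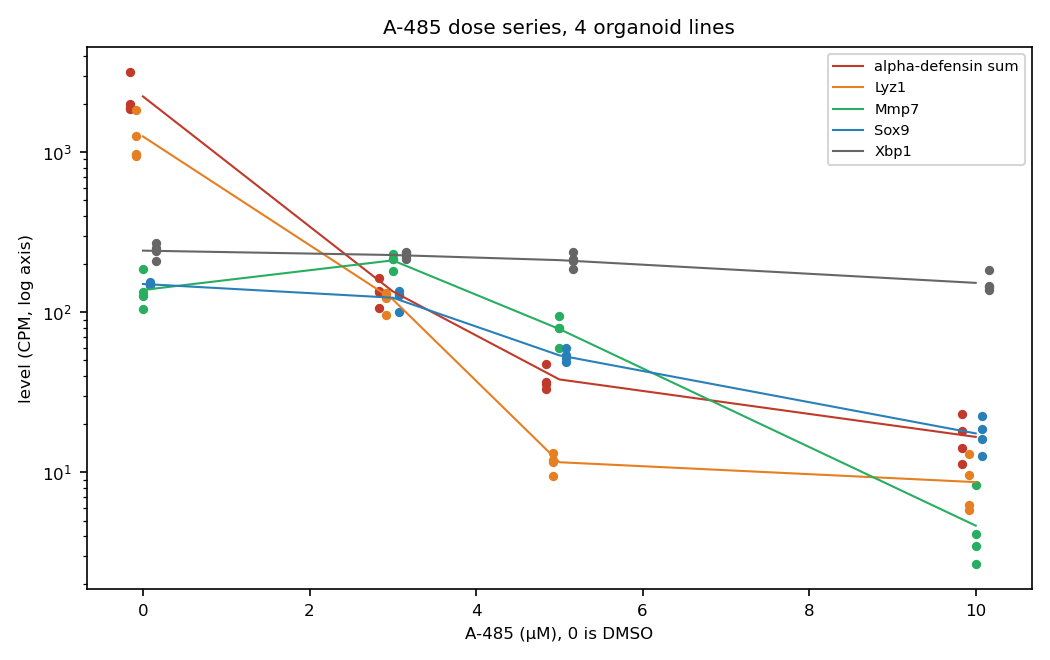
CPM after TMM scaling, on a log axis, of the alpha-defensin family sum, Lyz1, Mmp7, Sox9 and Xbp1 against A-485 dose in µM; points are the 4 organoid lines and lines join group means. The family and Lyz1 drop steeply at 3 µM, Mmp7 is above its DMSO mean at 3 µM and drops at 5 and 10 µM, and Xbp1 changes least.

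The make-up of the family differed between the sets of libraries. Per kilobase of transcript, Defa24 had 9980 ± 1427 CPM per kb (SD, n = 5) in heterozygous Rosa26(CreER) crypts, Defa30 3523 ± 644, Defa21 3245, Defa22 2527, Defa20 1083, Defa17 1028, Defa32 937 and Defa29 528. In heterozygous Vil1(CreER) crypts Defa24 had 2243 CPM per kb and Defa17 16.6, and in CreER-only organoids 4729 and 146. Defa17 thus took 3.88% of family reads in heterozygous Rosa26(CreER) crypts, 0.336% in heterozygous Vil1(CreER) crypts, 1.67% in CreER-only organoids and 7.24% in DMSO organoids of the A-485 set. Defa2 showed the same contrast, with 179 to 428.5 CPM in heterozygous Rosa26(CreER) crypts and 1.06 to 6.62 in heterozygous Vil1(CreER) crypts. Other Rosa26(CreER) cultures differed as well. Defa17 took 7.32% ± 5.85 (SD, n = 3) in DMSO organoids of the first set. In DMSO spheroid lines with at least 200 family reads it took 0.909% (flox/flox) and 0.477% (flox/+). The sets differ in tissue or culture, time and animals or lines, and Vil1(CreER) crypts also in driver. These, and any difference in preparation, cannot be told apart here. Defa17 and Defa2 share most of their sequence with another gene (90.6% and 100% of stretches of 100 bases), and the part of shared reads in the contrast was not tested.

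The genes whose levels followed the family sum most closely were listed for each set by Pearson's r of log2 CPM, as a description over libraries that share groups and depth. Over 19 Rosa26(CreER) tissue libraries they were Lyz1 (0.996), Ang4 (0.994), Gm14851 (0.994), AY761184 (0.992) and Gm7849 (0.991), the last 3 being rows that RefSeq names as alpha-defensins. Over 17 Vil1(CreER) tissue libraries they were Itln1 (0.989), Gm14851 (0.989), AY761184 (0.982), Creb3l1 (0.976) and Mlph (0.972). Over 6 libraries of the first organoid set they were Sorcs2, Kctd14, Cotl1, Cracr2a and Slc44a3, at 0.997 to 1.0, and Lyz1 stood at rank 10. Over 12 libraries of the second set they were Dcps, Gm14851, H2afv, Cotl1 and Csrp1, at 0.990 to 0.992, and Lyz1 stood at rank 100. Over 22 spheroid libraries they were Ang4 (0.966), Smoc2 (0.964), Itln1 (0.947), Olfm4 (0.944) and Socs2 (0.936), the third being a granule lectin and the fourth a stem cell gene. Over 16 A-485 libraries Gm1123 led with 0.987, Lyz1 came seventh with 0.979 and Mmp7 stood at rank 2544 with 0.662.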

How the data were processed

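Poly(A)-selected RNA of 92 mouse libraries was made into strand-marked (dUTP) libraries, per the labels' protocols. The authors deposited raw read counts per gene in 4 tables, per the labels, with no normalization. HISAT2 2.0.5 and the builds GRCm38 and mm10 are named in the submitters' processing notes; the counting program, its strand setting, its treatment of reads that fit several genes and the annotation are not given in the sources used here. Totals ran from 8652040 to 37611126 reads, which limits single members near 0 more than the family sum. No 2 libraries of a group were duplicates (lowest chi-square per degree of freedom 6.26). Organoid libraries in WENR medium were not analysed here.

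Each of 20 comparisons was fitted over all genes in edgeR 4.0.16 (R 4.3.3) with filterByExpr, TMM scaling within a set, quasi-likelihood F-tests and Benjamini-Hochberg adjustment over all tested genes, and a gene was called under 0.05; the steps were tested on simulated data. A member could pass the filter through the group where it is high, in deletion and A-485 comparisons too. Counts of called members therefore depend in part on the filter. Family sums are described without a test. A group with 0 reads was compared through a floor of 3 reads. The members, gene lists and comparisons were chosen with earlier results of these data known. Genes named are a selection from the 8 members with most reads, the 2 called members with the largest change per direction, fixed Paneth and other cell markers, the 5 genes most like the family per set and Eif4g2; Defa2, Defa23, Defa26, Defa31, Defa34, Defa36, Defa37 and the uncalled members were named after their values were seen. Alternatives were DESeq2 1.42.0 and its size factors, a replicate block, a fit of every gene with a read, other groups in the fit, terms for Y-linked reads and animal number series, the sum without Defa24, and leaving out each library.

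Replicates pair in the first organoid set (same-numbered residuals correlate from 0.318 to 0.501), within spheroid genotypes (0.385 to 0.783 in flox/flox and 0.626 to 0.857 in flox/+, same lines), in A-485 (0.0556 to 0.352, same lines) and between crypts and villi of the same mice (-0.002 to 0.296).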

Additional observations from a re-analysis of the deposited data

Results flagged for a closer look

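In 3 of the 18 groups of 4 to 10 libraries that were examined, 1 library stood apart from the rest in the family sum. The measure was the gap to its nearest neighbour over the group's range, in CPM. For normally distributed values chance gives about 1 in 20 groups. The spheroid groups are strongly skewed in CPM, so that rate does not apply to them. In the DMSO organoids of the A-485 set, line 1 had 3178 CPM against 1849 to 2000 in the other 3 (ratio 0.886). In flox/flox spheroids with 4-OHT, line 3 had 261.1 CPM, with 76.6 in the next highest (ratio 0.707). In flox/+ spheroids with 4-OHT, line 5 had 4232 CPM, with 860 in the next highest (ratio 0.797).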

How the results depend on the processing

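Across all alternatives 789 of the 839 values of the counts of called members and family ratios stayed within 1.5 times the count or within the spread of replicates. Many of these values were counts of 0, such as members called higher with A-485, which had little room to move. Shares of all genes called are given for the main fits only, and not for the alternatives below. Without a filter on low counts the members called lower were 13 in Rosa26(CreER) crypts, 14 in Vil1(CreER) crypts, 12 in Vil1(CreER) villi and 0 both in flox/flox spheroids and between spheroids and organoids, and no member was called higher in Rosa26(CreER) villi, where other genes enter the adjustment. With all groups of the table in the fit, 2 members were called higher in Rosa26(CreER) villi and 13 lower in Vil1(CreER) villi. Terms for Y-linked reads and for animal number series each left 0 calls in Rosa26(CreER) villi. With a replicate block, 11 members were called lower in Vil1(CreER) crypts and 9 between spheroids and organoids, where numbers do not pair libraries, 2 in flox/flox spheroids and 3 from 3 to 5 µM A-485; with those 2 groups alone the last 2 counts were 0 and 3. The block changed no other count of called members by over 1.5 times. Family log2 ratios without Defa24 were 1.40 in Rosa26(CreER) villi, 9.86 for crypts against villi (9.71 as CPM of the library total), -3.32 in the first and -2.67 and -2.75 in the second organoid set, -4.90, -7.05 and -8.01 for 3, 5 and 10 µM A-485 and -2.15 from 3 to 5 µM. Leaving out single libraries gave 12 to 24 members called lower in Rosa26(CreER) crypts, 0 to 1 called higher in Rosa26(CreER) villi, 12 to 21 lower in Vil1(CreER) crypts, 0 to 1 in flox/flox spheroids, 0 to 11 between spheroids and organoids and 4 to 7 from 3 to 5 µM A-485. Directions turned for Defa37 in flox/flox organoids, with a replicate block (-0.71 against flox/+ and -0.60 against CreER-only) and when 1 library was left out: Defa37 ranged from -1.97 to 0.97 against flox/+ and from -1.90 to 1.04 against CreER-only, both lowest without flox/flox replicate 4, Defa2 from -3.47 to 0.15 and Defa23 from -1.81 to 0.48 against flox/+. At 3 µM A-485 Atoh1 ranged from -0.07 to 0.34 and Spdef from -0.57 to 0.14. The cause was not tested. Few members could be tested where the family level was low: a filter left only 3 and 6 members to test in the 2 villus comparisons.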
